A study of Homo sapiens with 8 samples.

Results

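The comparison described here is the effect of an shRNA against CBFA2T3 in Reh cells, taken over 2 backgrounds at once. It sets the 4 arrays whose titles carry shCBFA2T3 against the 4 arrays without it, which together are all 8 arrays of the series. Reh is a long-established line of human B-cell precursors, which the design text derives from acute lymphoblastic leukemia, while the sample labels give non-Hodgkin lymphoma. Total RNA was hybridized to Affymetrix U133 Plus 2.0 arrays, which report each transcript through 1 or more probe sets. The 4 groups, each with biological replicates 1 and 2, were CBFA2T3 shRNA together with IKKβ(EE), CBFA2T3 shRNA alone, IKKβ(EE) alone, and control shRNA, whose titles read mock. Knockdown and expression were transient, per the labels. IKKβ(EE) is a constitutively active form of IκB kinase β. The labels do not say whether cells with IKKβ(EE) alone also received a control shRNA, and they give neither the sequence nor the number of shRNAs used. All values come from 1 cell line. The effect of the shRNA was estimated with IKKβ(EE) status and replicate number as covariates, which makes it the mean of 4 matched differences, each between an array with the shRNA and the array of the same IKKβ(EE) status and replicate number without it.

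CBFA2T3, also called ETO2 or MTG16, is a corepressor of the ETO family. It does not bind DNA by itself but joins transcription factor complexes, such as those of E proteins, TAL1, LMO2 and LDB1, and recruits other corepressors and histone deacetylases to their target genes. It is best known from hematopoietic stem and progenitor cells and from fusion genes in acute leukemia. IKKβ, the product of IKBKB, phosphorylates the inhibitors that hold NF-κB in the cytoplasm, so its active form switches on NF-κB target genes.

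All values are log2 intensities as the authors deposited them, and differences are log2 differences, with shRNA arrays minus arrays without the shRNA, given ± the standard error of the fit (SE). Probe sets were called at an adjusted p below 0.05 with limma over the 24481 probe sets tested. Arrays correlated at 0.937 to 0.991 over these probe sets. The first principal component accounted for 52.4% of the variance, and the second, with 24.3%, separated the shRNA arrays (-37.2 to -8.64) from the arrays without the shRNA (6.61 to 33.1). The log2 difference between the 3′ and 5′ control probe sets of ACTB, a sign of RNA integrity, was 1.51 to 1.81 with the shRNA and 1.25 to 1.94 without it. For GAPDH it was 0.264 to 0.304 with the shRNA and 0.294 to 0.378 without it, and the part of this offset in the results was not tested. Of 15 B-lineage precursor markers on the array, 14 had a mean of at least log2 5, and PAX5, EBF1, DNTT and VPREB3 stood near 12 to 14, whereas VPREB1 stood at 3.26 with the shRNA and 3.18 without it. Of 12 T-cell markers 3 reached that level, of 7 NK-cell markers 3, of 11 myeloid markers 3, of 7 erythroid or megakaryocytic markers 3, and of 12 stromal, endothelial or epithelial markers 2. The RNA comes from bulk cultures, in which fewer cells of a type and less RNA per cell cannot be told apart.

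CBFA2T3 itself, a gene on chromosome 16 measured by 1 probe set, was lower in every shRNA array. It stood at 8.23 and 7.83 with the shRNA and IKKβ(EE) and at 8.40 and 8.11 with the shRNA alone, against 8.91 and 8.89 with IKKβ(EE) alone and 9.22 and 9.29 with the control shRNA. The 4 shRNA arrays lay below all 4 others, and the level fell to 52.3% of that without the shRNA (log2 difference -0.93 ± 0.09, 95% confidence interval -1.15 to -0.72, limma adjusted p = 0.00161). The fall was 0.87 with IKKβ(EE) (adjusted p = 0.0255) and 1.00 without it (adjusted p = 0.0100), and these differed by 0.13 (95% confidence interval -0.32 to 0.58). IKBKB has 3 probe sets, and 1 of them was far higher in all 4 IKKβ(EE) arrays (effect of IKKβ(EE) 7.16, limma adjusted p = 1.12e-05). The effect of IKKβ(EE) was 0.29 (adjusted p = 0.0469) and 0.26 (adjusted p = 0.131) on the others. On the first probe set the log2 level was 11.45 and 11.97 with the shRNA and IKKβ(EE) and 4.43 and 3.60 with the shRNA alone, against 10.85 and 10.39 with IKKβ(EE) alone and 3.97 and 4.02 with the control shRNA. Among the IKKβ(EE) arrays it was higher with the shRNA by 1.09 ± 0.28, which did not pass the test (adjusted p = 0.0714), and in the arrays without IKKβ(EE) the difference was 0.02. CSF1R, the macrophage colony-stimulating factor receptor, stood at 5.18, 5.02, 5.28 and 5.15 in the shRNA arrays and at 4.61, 5.11, 4.95 and 5.0 in the arrays without it, close to background, and was not called (0.24, 95% confidence interval -0.02 to 0.49, adjusted p = 0.159).

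**Figure D1:**
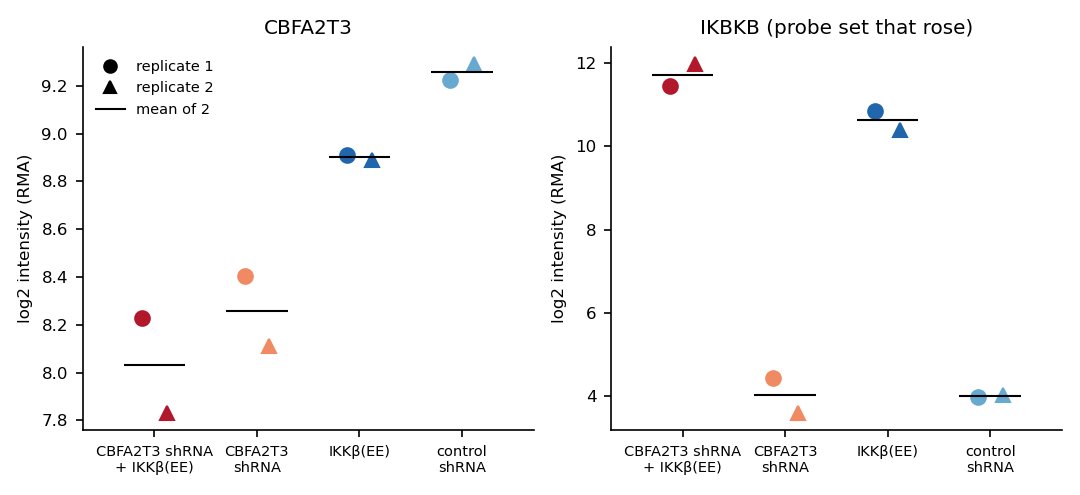
Log2 intensity (RMA) of CBFA2T3 (left) and of the IKBKB probe set with the large IKKβ(EE) effect (right) on all 8 arrays, in 4 groups of 2; circles are replicate 1, triangles replicate 2 and bars the mean of 2. CBFA2T3 lies between 7.83 and 8.40 with its shRNA and between 8.89 and 9.29 without it, and IKBKB lies above 10 in the IKKβ(EE) groups and below 5 in the others.

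The main question was which transcripts changed with the CBFA2T3 shRNA on average over the 2 backgrounds. A call in this main effect does not require a change in each background. With the shRNA, 2779 probe sets rose and 2750 fell, together 5529 of 24481 (22.6%; 11.4% higher and 11.2% lower). With each gene represented by its brightest probe set, 1475 of 11449 genes were called higher (12.9%) and 1171 lower (10.2%), together 23.1%. Most changes were small. The median size of a called difference was 0.42 on the log2 scale against 0.15 over all tested probe sets, and 195 probe sets rose and 117 fell by at least log2 1, or 2-fold. A change of at least log2 2 was found for 11 that rose and 1 that fell. The 4 shRNA arrays lay wholly above the others in 1770 probe sets (7.23%) and wholly below in 1971 (8.05%), and 2967 called probe sets were among these. Without replicate number as a covariate 2620 probe sets were called, all of them among the 5529, and the count was 2676 without control shRNA replicate 2, 2846 without CBFA2T3 shRNA replicate 2 and 2945 without IKKβ(EE) replicate 2. For 5463 genes with several tested probe sets, 947 had more than 1 called, and in 69 of those the called probe sets went in opposite directions.

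The 12 largest rises under the shRNA were those of TOX, CDC42EP3, PLS3, FOS, GOLIM4, CCL4, RSAD2, LGALS1, FCGR1BP, FOSL2, LCK and MTSS1. TOX, a nuclear factor of the HMG-box family known from T-cell development, rose 9.21-fold (3.20 ± 0.25, limma adjusted p = 0.000926). It stood at 5.89 and 5.68 with the shRNA and IKKβ(EE) and at 5.67 and 6.91 with the shRNA alone, against 3.02 and 2.74 with IKKβ(EE) alone and 2.80 and 2.79 with the control shRNA. The groups did not overlap, and TOX was near background without the shRNA, so its fold is uncertain. LCK, a kinase of the Src family that relays T-cell receptor signals, stood at 6.52 and 6.96 with the shRNA and IKKβ(EE) and at 6.68 and 7.31 with the shRNA alone, against 5.05 and 5.20 with IKKβ(EE) alone and 5.04 and 4.85 with the control shRNA. It rose by 1.83 ± 0.15 (adjusted p = 0.000982), again without overlap. GATA3, a transcription factor of T cells and other lineages, rose by 1.75 ± 0.23 (adjusted p = 0.00336), with 7.62, 8.99, 7.68 and 8.53 in the shRNA arrays and 6.60, 7.51, 5.70 and 6.02 in the arrays without it. Beside these, the defining T-cell genes CD3D, CD3E, CD3G and CD2 had means between 3.52 and 4.61 with the shRNA and between 3.57 and 4.85 without it, below the floor of log2 5. The mean level of the 12 T-cell markers was 4.60 to 4.82 in the shRNA arrays and 4.38 to 4.56 in the arrays without it. That mean includes LCK and GATA3. Among the other members the largest rise was that of CD28 (4.18 with the shRNA, 4.03 without it). The largest fall among them was that of CD3D (4.61 with the shRNA, 4.85 without it). Single markers of other cell types rose as well, namely NKG7, a granule protein of NK and T cells (0.90 ± 0.09, adjusted p = 0.00182), and PDGFRB, a growth factor receptor of mesenchymal cells (0.81 ± 0.14, adjusted p = 0.00764). The means of their whole marker lists stayed below 5 on every array, and the part of other cell types in the results was not tested.

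FOS, a subunit of the AP-1 transcription factor, stood at 7.39 and 8.52 with the shRNA and IKKβ(EE) and at 7.87 and 8.36 with the shRNA alone, against 5.55 and 7.10 with IKKβ(EE) alone and 4.70 and 5.15 with the control shRNA. It rose by 2.41 ± 0.32 (limma adjusted p = 0.00363), and the shRNA arrays lay above all others. FOSL2, another AP-1 subunit, rose by 1.94 ± 0.41 (adjusted p = 0.0144) and was the only 1 of the 24 genes with the largest changes that lost its call when a single array was left out (adjusted p = 0.0580 without CBFA2T3 shRNA replicate 2). CCL4, a chemokine that attracts monocytes and lymphocytes, showed the widest spread of these rises. Its level was 10.28 and 11.61 with the shRNA and IKKβ(EE) and 5.05 and 7.48 with the shRNA alone, against 7.70 and 8.29 with IKKβ(EE) alone and 4.54 and 4.43 with the control shRNA. CCL4 was also higher in the IKKβ(EE) arrays and the groups overlapped, but each matched difference was positive, from 0.51 to 3.32 (main effect 2.36 ± 0.40, adjusted p = 0.00698). LGALS1, which encodes the secreted lectin galectin-1, stood at 8.91, 10.79, 7.94 and 9.66 in the shRNA arrays and at 7.77, 8.90, 5.98 and 6.57 in the arrays without it (2.02 ± 0.26, adjusted p = 0.00332).

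CDC42EP3, an effector of the GTPase CDC42, rose by 2.44 ± 0.35 (adjusted p = 0.00426), and all 4 of its probe sets were called higher. PLS3, an actin-bundling plastin, rose by 2.42 ± 0.33, GOLIM4, a Golgi membrane protein, by 2.38 ± 0.39, and MTSS1, which links membranes to actin, by 1.83 ± 0.21. The sides overlapped for PLS3, GOLIM4 and MTSS1, which were also higher in the IKKβ(EE) arrays (effect of IKKβ(EE) 3.05, 1.96 and 1.59). PLS3 stood at 5.56 and 6.44 with the shRNA alone and at 6.51 and 6.75 with IKKβ(EE) alone. FCGR1BP, annotated as a copy of the high-affinity IgG receptor gene, rose by 1.99 ± 0.11, but its probe set belongs to a family of near-identical genes and the source of its signal is uncertain. Without the shRNA, CDC42EP3, PLS3, GOLIM4, FCGR1BP and FOSL2 had means of 4.08 to 4.94, and their folds are uncertain for that reason. Of all 1475 genes called higher, 97 had such a mean below log2 5 without the shRNA.

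The 12 genes with the largest falls had means of 6.54 to 11.24 without the shRNA. The naming rule required a mean of at least log2 6 on the higher side, which for a fall is the side without the shRNA. SDC2, the heparan sulfate proteoglycan syndecan-2, stood at 4.88 and 4.76 with the shRNA and IKKβ(EE) and at 4.13 and 3.46 with the shRNA alone, against 7.23 and 7.36 with IKKβ(EE) alone and 6.10 and 5.47 with the control shRNA. It fell by 2.23 ± 0.16 (limma adjusted p = 0.000808), with no overlap, but all 4 shRNA arrays lay below log2 5, so the size of the fall is uncertain, and all 3 of its probe sets were called lower. COX7A2L, a factor for the assembly of respiratory supercomplexes, stood at 9.72, 9.25, 9.54 and 9.10 in the shRNA arrays and at 11.16, 11.31, 11.22 and 11.27 in the arrays without it. The arrays of each side lay close together and far from the other side, and the difference was -1.84 ± 0.12 (adjusted p = 0.000808). PROM1, which encodes the progenitor surface protein CD133, stood at 6.74 and 5.97 with the shRNA and IKKβ(EE) and at 7.22 and 7.37 with the shRNA alone, against 7.98 and 8.07 with IKKβ(EE) alone and 8.76 and 9.27 with the control shRNA. It fell by 1.69 ± 0.18 (adjusted p = 0.00182). LMO2, the LIM-domain adaptor that bridges TAL1, LDB1 and ETO family complexes, stood at 7.18, 6.62, 7.23 and 6.21 in the shRNA arrays and at 8.24, 7.97, 8.49 and 8.50 in the arrays without it. It fell by 1.49 ± 0.18 (adjusted p = 0.00276), and the groups again did not overlap.

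TBC1D9, a protein with a Rab GTPase-activating domain, fell by 1.77 ± 0.16, RASSF5, an effector of Ras and Rap GTPases in lymphocyte adhesion, by 1.52 ± 0.16, and the type II receptor of bone morphogenetic proteins BMPR2 by 1.42 ± 0.09. All 4 BMPR2 probe sets were called lower, with differences from -1.55 to -0.67. Also among the 12 largest falls were FGFBP2, a secreted protein of cytotoxic lymphocytes (-1.47 ± 0.11), the homeobox gene IRX3 (-1.46 ± 0.11), PRAC1 (-1.42 ± 0.15), the methyltransferase gene CARNMT1 (-1.41 ± 0.13) and SHROOM3, a regulator of cell shape through actin (-1.35 ± 0.09). IRX3 alone among these 12 genes overlapped between the groups, with 6.10 to 7.59 in the shRNA arrays and 7.41 to 9.17 in the arrays without it. The IKKβ(EE) arrays were the higher ones on both sides. All matched differences of the 24 genes with the largest changes had the sign of the main effect, which the naming rule required.

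**Figure D2:**
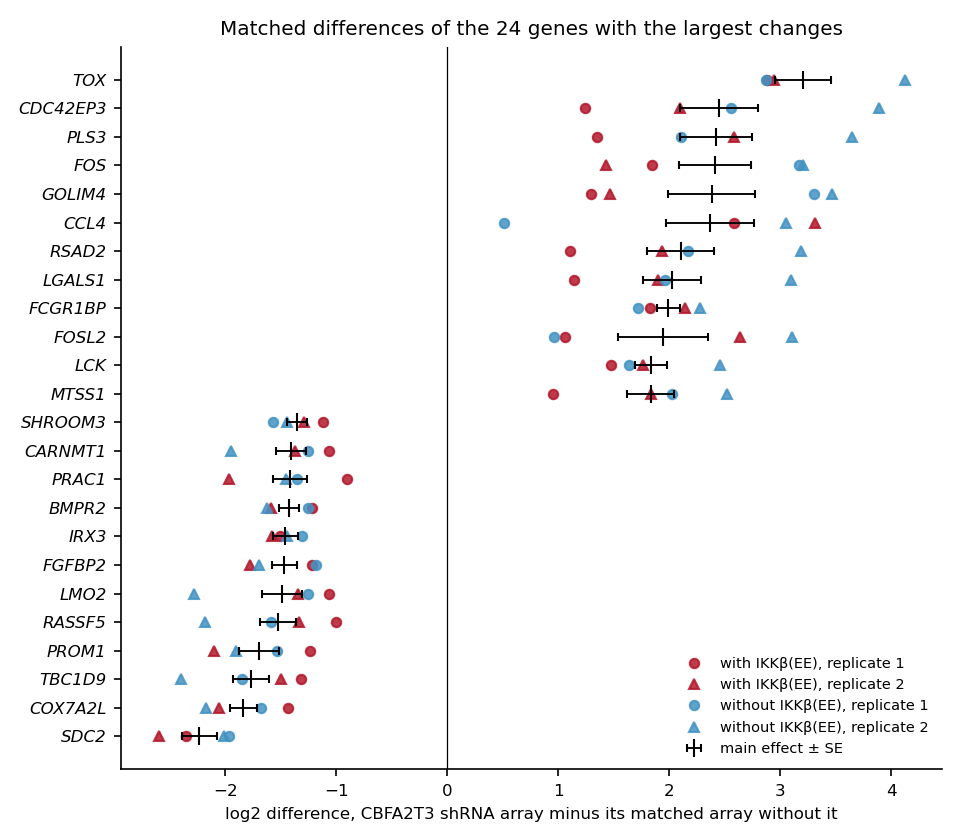
Matched log2 differences (CBFA2T3 shRNA array minus the array of the same IKKβ(EE) status and replicate number without it) of the 12 genes with the largest rise and the 12 with the largest fall; circles are replicate 1, triangles replicate 2, red with IKKβ(EE), blue without, and black bars the main effect ± SE. SDC2 shows differences of -2.60 to -1.97, and CCL4 spreads from 0.51 to 3.32.

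A mean over 2 backgrounds describes both only where they are alike, so the shRNA effect was also estimated within each. With IKKβ(EE), 1117 probe sets passed the test (4.56%; 533 higher, 2.18%, and 584 lower, 2.39%), and without it 1890 (7.72%; 975 higher, 3.98%, and 915 lower, 3.74%). The effects rest on different arrays, although the arrays share their replicate numbers. Across probe sets the effects with and without IKKβ(EE) had a Pearson correlation of 0.71 and a Spearman correlation of 0.68, a slope of 0.70, and the same sign for 74.2%; probe sets are not independent replicates, and no test is attached. Both backgrounds called 656 probe sets, and 653 of these changed in the same direction, which is 58.5% of the calls with IKKβ(EE) and 34.6% of the calls without it. A further 3467 were called in the main effect and in neither background alone.

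The difference of the shRNA effect with minus without IKKβ(EE) was called for 3 probe sets (0.0123%), all more positive with IKKβ(EE), and 1358 (5.55%) had an unadjusted p below 0.05. Its median SE was 0.17, beside 0.08 for the main effect, so small differences between backgrounds were not detectable. Among the 12 largest rises, only that of CCL4 had the larger estimate with IKKβ(EE) (2.95, against 1.78 without it). The others had smaller estimates with IKKβ(EE), among them GOLIM4 (1.38 against 3.38), FOS (1.64 against 3.19), CDC42EP3 (1.67 against 3.22) and RSAD2 (1.52 against 2.68). None of these differences was called. HSPA6, a strictly inducible chaperone of the HSP70 family, stood at 8.42 and 8.27 with the shRNA and IKKβ(EE) and at 4.07 and 4.03 with the shRNA alone, against 5.17 and 4.81 with IKKβ(EE) alone and 4.19 and 4.56 with the control shRNA. High values were found only in the 2 arrays with both transfections, and the effect with IKKβ(EE) exceeded that without it by 3.68 ± 0.24 (limma adjusted p = 0.00868). SLAMF7, a surface receptor of NK cells and plasma cells, followed the same layout, with 6.74 and 7.02 with the shRNA and IKKβ(EE) and 3.15 and 3.51 with the shRNA alone, against 4.16 and 4.01 with IKKβ(EE) alone and 3.35 and 3.23 with the control shRNA (difference 2.76 ± 0.21, adjusted p = 0.0210). The remaining probe set carries several gene symbols and is not named here. It stood at 7.27 and 7.80 with the shRNA and IKKβ(EE) and at 2.74 and 3.21 with the shRNA alone, against 3.52 and 3.86 with IKKβ(EE) alone and 2.72 and 2.87 with the control shRNA (difference 3.67 ± 0.17, adjusted p = 0.00147). Without either CBFA2T3 shRNA array the count of called differences was 0, and it was 57 without replicate 1 and 10 without replicate 2 of the shRNA with IKKβ(EE). HSPA6 and SLAMF7 were not called in the main effect (1.52 ± 0.66, adjusted p = 0.137, and 1.42 ± 0.50, adjusted p = 0.0770). IKBKB, on the probe set with the large IKKβ(EE) effect, was 1.09 higher with the shRNA in the same pair of groups, and its part in these differences was not tested.

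**Figure D3:**
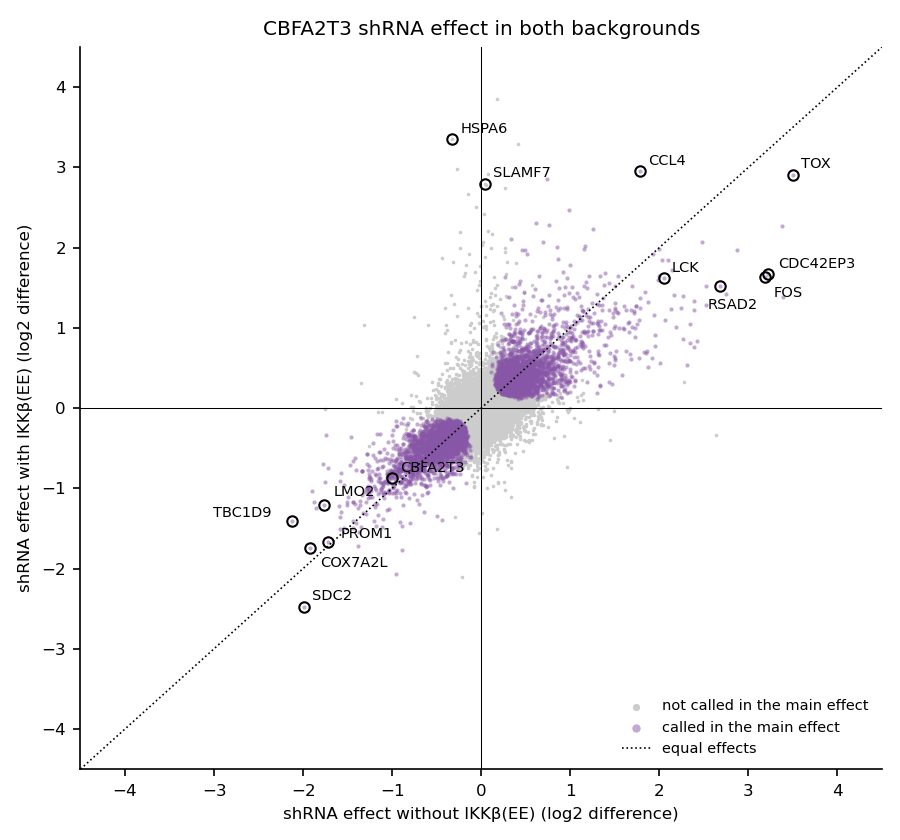
CBFA2T3 shRNA effect (log2 difference) with IKKβ(EE) on the vertical axis against the effect without IKKβ(EE) on the horizontal axis, for 24481 probe sets; purple points were called in the main effect, and the dotted line marks equal effects. TOX and SDC2 lie far from 0 in both backgrounds, while HSPA6 and SLAMF7 lie high on the vertical axis and near 0 on the horizontal one.

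Gene lists show which processes the called genes belong to. For each list the members called higher and lower were counted on 1 probe set per gene, beside 12.9% higher and 10.2% lower over all tested genes, whose median difference was 0.02.

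**Figure D4:**
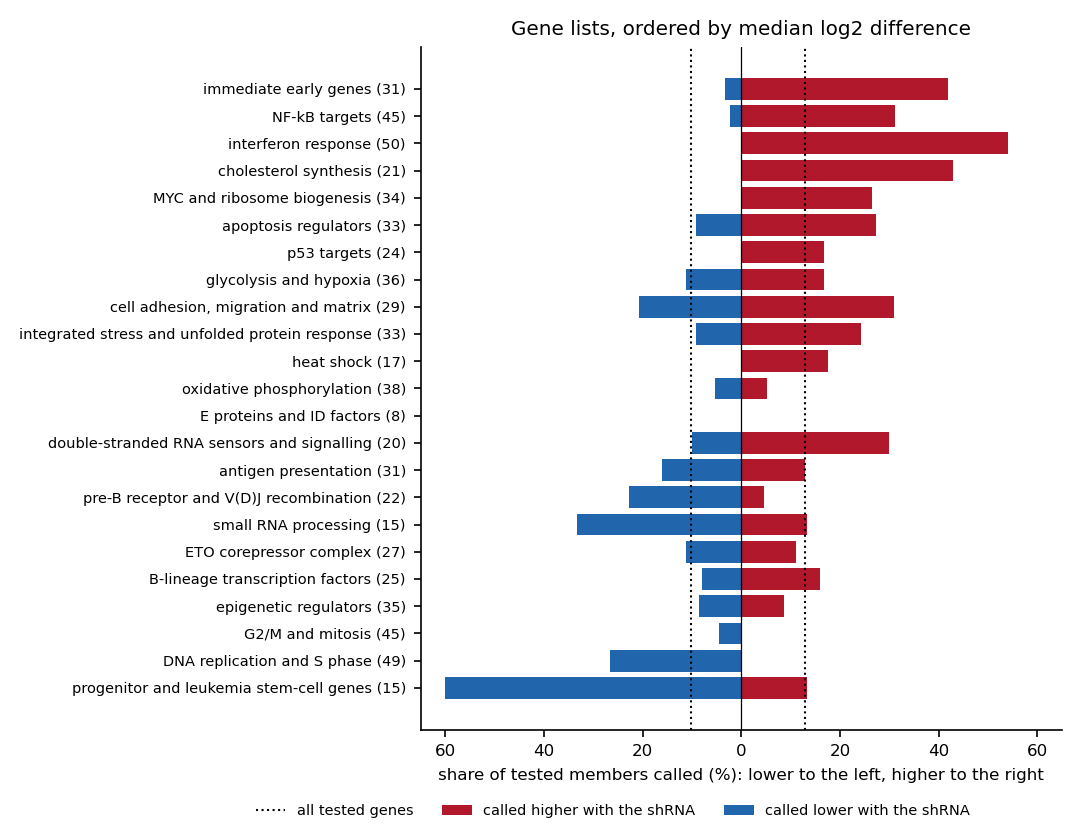
Share of tested members called higher (red, right) and lower (blue, left) with the CBFA2T3 shRNA in 23 gene lists, ordered by median log2 difference, with the number of tested members in parentheses; dotted lines mark the 12.9% and 10.2% of all tested genes. Interferon response genes reach 54.0% called higher with none lower, and progenitor genes reach 60% called lower.

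Many interferon response genes rose. Of 50 tested members, 27 were called higher (54.0%) and 0 lower, and the median difference over the list was 0.33. RSAD2, the antiviral enzyme viperin, had the largest rise (2.10 ± 0.30, limma adjusted p = 0.00417). It stood at 10.60 and 10.91 with the shRNA and IKKβ(EE) and at 9.01 and 10.15 with the shRNA alone, against 9.49 and 8.98 with IKKβ(EE) alone and 6.84 and 6.96 with the control shRNA. ISG15, a ubiquitin-like modifier that interferon induces, stood at 12.35, 12.59, 11.65 and 12.12 in the shRNA arrays and at 11.35, 11.13, 10.80 and 10.58 in the arrays without it (1.21 ± 0.12, adjusted p = 0.00164). ISG15 did not overlap between the sides, whereas RSAD2 did: its level with IKKβ(EE) alone reached that of 1 array with the shRNA alone. Other large rises were those of the exonuclease gene ISG20 (1.82 ± 0.20), OASL (1.58 ± 0.21), and IFIT2, IFIT5, IFIT1 and IFIT3, which encode antiviral RNA-binding proteins (1.37, 1.25, 1.17 and 1.15). IRF9, a subunit of the transcription factor that interferon activates, rose by 1.05 ± 0.17 and IRF7 by 0.59 ± 0.12. Other members of the list showed little difference and were not called: MX1 (0.01), BST2 (-0.02), OAS3 (-0.06), CXCL10 (0.11) and EIF2AK2 (-0.20, adjusted p = 0.106). The list's median was 0.36 with IKKβ(EE) and 0.36 without it, with 14 and 15 members called higher (2.51% and 4.31% of all genes). The count in the main effect stayed between 21 and 30 when any single array was left out, and was 23 without the replicate covariate.

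The list of double-stranded RNA sensors and their signalling also holds genes outside that pathway, MYD88 and TLR7 among them. Of its 20 tested genes, 6 were called higher (30.0%) and 2 lower (10%), with a median of 0.02. The adaptor MYD88 rose by 0.75 ± 0.10 (adjusted p = 0.00379), the helicases DHX58 (0.65), IFIH1 (0.55) and RIGI (0.36) rose as well, and TLR7, an endosomal RNA receptor, fell by 0.57 ± 0.16 (adjusted p = 0.0391). The TLR7 levels of the sides overlapped, and its matched differences ran from -1.01 to 0.11. TLR3 (-0.25), MAVS (0.03), TBK1 (-0.06) and IRF3 (-0.05) were not called. Without the replicate covariate 1 member was called higher. In 15 genes of small RNA processing, the pathway that shRNAs enter, 5 were called lower (33.3%) and 2 higher (13.3%). The GW182 family genes TNRC6C (-0.70 ± 0.07, adjusted p = 0.00161), TNRC6A (-0.31) and TNRC6B (-0.25) and the nuclease gene DROSHA (-0.32) fell, and the uridylyltransferase gene TUT7 rose by 0.24 ± 0.07 on 1 of its 4 probe sets. Without the replicate covariate 2 members were called lower and 0 higher, and without any single array 1 to 3 lower and 0 or 1 higher.

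The rise of interferon response genes was set beside their promoters. The interferon-stimulated response element was searched as GAAA, any 2 bases and GAAA on both strands in RefSeq windows of 300 bases around each start site (GRCh38.p14). The motif, counted in any window of a gene, was present in 388 of 9361 tested genes with a window (4.14%), in 86 of 1210 genes called higher (7.11%) and in 36 of 974 called lower (3.7%). Over all 35116 windows of the table the share was 3.57%. In the interferon response list it was present in 15 of the 23 called genes that have a window (65.2%) and in 13 of the 18 not called (72.2%). Windows are shown for the 4 genes with the largest rises among the called list members that carry the motif. Their matches differ in number and orientation. RSAD2 has 2 windows, of which 1 is shown. Each window shown is given on the plus strand, 5′ to 3′, in lower case, with matches in capitals. RSAD2 lies at chr2:6877527-6877826 with 1 match on the minus strand, and ISG20 at chr15:88638766-88639065 with 1 on the plus strand. IFIT5 lies at chr10:89414318-89414617 with 3 matches on the minus strand, and ISG15 at chr1:1013247-1013546 with 2 overlapping matches on the plus strand.
RSAD2: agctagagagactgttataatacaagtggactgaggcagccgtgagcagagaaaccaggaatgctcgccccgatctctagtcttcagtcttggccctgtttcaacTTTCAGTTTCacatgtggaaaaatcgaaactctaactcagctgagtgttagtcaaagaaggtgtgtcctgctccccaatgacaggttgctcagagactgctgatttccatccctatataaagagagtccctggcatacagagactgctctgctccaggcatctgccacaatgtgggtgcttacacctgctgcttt
ISG20: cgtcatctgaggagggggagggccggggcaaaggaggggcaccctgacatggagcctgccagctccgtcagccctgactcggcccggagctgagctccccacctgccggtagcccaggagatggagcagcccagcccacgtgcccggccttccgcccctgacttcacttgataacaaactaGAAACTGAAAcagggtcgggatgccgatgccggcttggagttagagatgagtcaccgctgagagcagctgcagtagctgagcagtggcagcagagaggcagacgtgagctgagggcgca
IFIT5: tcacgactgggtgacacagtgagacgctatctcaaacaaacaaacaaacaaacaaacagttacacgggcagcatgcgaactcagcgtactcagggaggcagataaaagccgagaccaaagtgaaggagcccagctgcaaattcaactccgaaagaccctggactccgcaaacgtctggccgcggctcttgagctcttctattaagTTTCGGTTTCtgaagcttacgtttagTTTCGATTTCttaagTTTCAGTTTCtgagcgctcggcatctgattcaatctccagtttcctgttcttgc
ISG15: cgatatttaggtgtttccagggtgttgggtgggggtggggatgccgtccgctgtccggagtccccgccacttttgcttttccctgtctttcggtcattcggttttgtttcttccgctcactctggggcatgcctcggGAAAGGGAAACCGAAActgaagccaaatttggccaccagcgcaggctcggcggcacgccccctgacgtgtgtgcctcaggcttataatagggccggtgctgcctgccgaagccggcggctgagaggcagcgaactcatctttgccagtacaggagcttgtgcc
A match describes these letters only, and binding was not measured.

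Many immediate early genes, which growth factor and stress signals induce within minutes, also rose. Of 31 tested members, 13 were called higher (41.9%) and 1 lower (3.23%), with a median of 0.49, the highest of the 23 lists. Besides FOS and FOSL2, the AP-1 genes JUN (1.51 ± 0.22, adjusted p = 0.00447), JUNB (0.65) and JUND (0.27) rose. EGR1 rose by 1.29 ± 0.36, KLF6 by 0.85 ± 0.10, KLF2 by 0.69 ± 0.16 and the stress-induced factor ATF3 by 1.06 ± 0.13. DUSP6, a phosphatase that dampens ERK, fell by 0.42 ± 0.11 (adjusted p = 0.0345), and SPRY2, another feedback inhibitor of that pathway, rose by 0.56 ± 0.10. MYC (-0.03), DUSP1 (-0.14) and FOSB (0.12) were not called. Differences in the list were wide: NR4A2, a nuclear receptor, had 4.65, 7.82, 3.91 and 4.87 in the shRNA arrays and 3.90, 5.49, 3.67 and 3.96 in the arrays without it, and was not called (1.05 ± 0.42, adjusted p = 0.108). Without the replicate covariate 3 members were called higher, and 8 without control shRNA replicate 2 or without CBFA2T3 shRNA replicate 2.

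Part of the NF-κB targets rose, and the median effect was higher with IKKβ(EE). In the main effect 14 of 45 members were called higher (31.1%) and 1 lower (2.22%), with a median of 0.41. The median was 0.62 with IKKβ(EE) and 0.11 without it, 14 members were called higher and 0 lower with IKKβ(EE), and 5 higher and 2 lower without it. Over all genes 2.51% were called higher and 2.11% lower with IKKβ(EE), and 4.31% higher and 3.49% lower without it. The effect was more positive with IKKβ(EE) for 38 of the 45, but 0 members were called for the difference. The list as a whole was not tested. A more positive effect with IKKβ(EE) was also found for 31 of 34 MYC and ribosome biogenesis genes and 16 of 17 heat shock genes. Among G2/M and mitosis genes it was found for 6 of 45. Over all tested genes the median effect was 0.018 with IKKβ(EE) and 0.022 without it. The share of all genes with a more positive effect was not counted, so these counts lack that background. The chemokines CXCL8 (1.30 ± 0.15, 1.30 in each background) and CCL5 (1.20 ± 0.10, 1.28 with and 1.12 without IKKβ(EE)) rose in the main effect. CCL20 rose by 1.80 ± 0.41 in the main effect, with 6.67 and 6.99 with the shRNA and IKKβ(EE) and 3.65 and 4.65 with the shRNA alone, against 3.94 and 4.01 with IKKβ(EE) alone and 3.45 and 3.37 with the control shRNA. Its high values were in the 2 arrays with both transfections, as were those of CCL22, which had 6.64 and 7.47 there and 4.25 to 4.62 in the other 6 arrays and was not called (1.22, adjusted p = 0.105). BCL2A1, an antiapoptotic BCL2 relative, stood at 9.65 and 10.81 with the shRNA and IKKβ(EE) and at 3.62 and 4.41 with the shRNA alone, against 8.31 and 8.76 with IKKβ(EE) alone and 2.85 and 3.36 with the control shRNA (1.31 ± 0.18, adjusted p = 0.00399). LTB, which encodes lymphotoxin β, fell by 0.83 ± 0.19 (adjusted p = 0.0206). The core genes NFKBIA (-0.08), TNFAIP3 (-0.17), NFKB1 (-0.21) and RELB (0.08) were not called. IKBKB, on the probe set with the large IKKβ(EE) effect, moved with this list, being 1.09 higher with the shRNA among the IKKβ(EE) arrays and 0.02 higher in the others, and its part in the list's values was not tested. Without the replicate covariate 8 members were called higher.

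**Figure D5:**
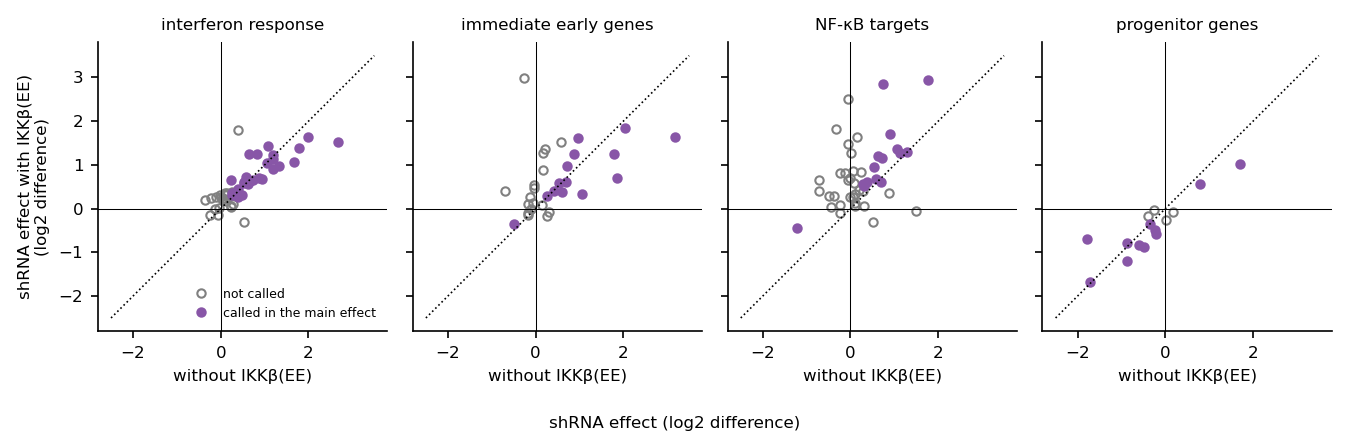
CBFA2T3 shRNA effect (log2 difference) with IKKβ(EE) on the vertical axis against that without IKKβ(EE) on the horizontal axis, for the tested members of 4 lists; filled points were called in the main effect, and dotted lines mark equal effects. Interferon response genes lie along the line, many NF-κB targets lie above it, and most progenitor genes lie below 0 in both backgrounds.

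Part of the progenitor and leukemia stem-cell genes fell. Of 15 tested members, 9 were called lower (60%) and 2 higher (13.3%), with a median of -0.36. Besides PROM1, the transcriptional coregulator MN1 (-1.23 ± 0.21), the WNT pathway receptor LGR5 (-1.04 ± 0.26), the receptor tyrosine kinases FLT3 (-0.83 ± 0.15) and KIT (-0.68 ± 0.13) and the ETS factor ERG (-0.72 ± 0.14) fell. FLT3 stood at 7.92, 7.32, 8.31 and 7.99 in the shRNA arrays and at 8.40, 8.39, 8.79 and 9.26 in the arrays without it, and MN1 at 5.10, 4.87, 5.29 and 5.26 against 5.91, 5.44, 7.15 and 6.95 in the arrays without it. Neither gene overlapped between the sides. IKZF2, the Ikaros family factor Helios, rose by 1.36 ± 0.15 (adjusted p = 0.00213), with 9.18, 10.10, 9.49 and 9.89 in the shRNA arrays and 8.26, 8.99, 7.61 and 8.38 in the arrays without it, and the integrin gene ITGA6 rose by 0.68 ± 0.08. MYB (-0.12), MSI2 (0.04), ENG (-0.14) and CD200 (-0.28, adjusted p = 0.0520) were not called. The fall counted 5 members both without the replicate covariate and without IKKβ(EE) replicate 2.

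Of 25 tested members of the list of B-lineage transcription factors, 4 were called higher (16%) and 2 lower (8%), with a median of -0.05. These shares lie near those of all tested genes, and without the replicate covariate 2 were called higher and 1 lower. SPIB, an ETS factor of B cells and plasmacytoid dendritic cells, stood at 7.45, 8.28, 7.36 and 7.67 in the shRNA arrays and at 6.43, 6.75, 5.90 and 5.66 in the arrays without it, with no overlap (1.51 ± 0.17, adjusted p = 0.00213). POU2F2 (0.84 ± 0.17), TCL1A (0.79 ± 0.12) and BCL6 (0.48 ± 0.09) also rose, while BCL11A (-0.55 ± 0.08, adjusted p = 0.00440) and SOX4 (-0.36) fell. TCL1A is on the list but is not itself a transcription factor. In the list for the pre-B receptor and V(D)J recombination, 5 of 22 members were called lower (22.7%) and 1 higher (4.55%). RAG2, a subunit of the recombinase, fell by 0.62 ± 0.13 (adjusted p = 0.0154), DNTT, which adds nucleotides at the joints, by 0.47 ± 0.08, and the signalling genes CD79B and SYK by 0.34 and 0.33. The phospholipase gene PLCG2 rose by 0.33 ± 0.09 (adjusted p = 0.0334). The count of falls in this list was 1 without IKKβ(EE) replicate 2, 2 without replicate 2 of CBFA2T3 shRNA or control shRNA, and 3 without replicate 2 of the shRNA with IKKβ(EE) or replicate 1 of CBFA2T3 shRNA or IKKβ(EE). Mean levels of the B-lineage markers were 10.60 to 10.84 in the shRNA arrays and 10.85 to 10.96 in the arrays without it, with 4 of 14 called lower (28.6%), namely CD79B, MME, DNTT and RAG2. The marker count was 1 without IKKβ(EE) replicate 2 and 2 without replicate 2 of CBFA2T3 shRNA or control shRNA.

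Among 31 antigen presentation genes, 4 were called higher (12.9%) and 5 lower (16.1%). The class II genes HLA-DPB1 and HLA-DRB1 fell by 1.11 ± 0.11 (adjusted p = 0.00150) and 0.84 ± 0.08 (adjusted p = 0.00149). HLA-DPB1 stood at 11.25, 11.43, 10.77 and 10.54 in the shRNA arrays and at 12.24, 12.68, 11.61 and 11.88 in the arrays without it, so the sides did not overlap. The HLA-DRB1 probe set may also read related HLA-DRB genes. TAP1, the peptide transporter of the class I pathway, rose by 0.61 ± 0.10 (adjusted p = 0.00678), and the immunoproteasome genes PSMB8 and PSMB9 rose by 0.35 and 0.29. Without replicate 2 of CBFA2T3 shRNA, of IKKβ(EE) or of both together, 3 members were called lower, and without replicate 2 of CBFA2T3 shRNA, IKKβ(EE) or control shRNA 2 were called higher.

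Genes of DNA replication fell in part. Of 49 genes of DNA replication and S phase, 13 were called lower (26.5%) and 0 higher, with a median of -0.19, and of 45 genes of G2/M and mitosis 2 were called lower (4.44%) and 0 higher, with a median of -0.13. The primase gene PRIM1 fell by 0.53 ± 0.15 (adjusted p = 0.0375), the polymerase gene POLD1 by 0.51 ± 0.11, the helicase gene MCM3 by 0.40 ± 0.10 and the mitotic kinase gene CDK1 by 0.36 ± 0.09 (adjusted p = 0.0217). The G2/M count was 0 without the replicate covariate and without any single array other than replicate 1 of the shRNA with IKKβ(EE) (3) or of control shRNA (8). The calls rested on few arrays: without the replicate covariate 0 S-phase members were called, and without a single array 1 to 18. The count was 1 without CBFA2T3 shRNA replicate 1, IKKβ(EE) replicate 2 or control shRNA replicate 2, 2 without CBFA2T3 shRNA replicate 2, and 3 without replicate 2 of the shRNA with IKKβ(EE) or without IKKβ(EE) replicate 1.

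Of 21 cholesterol synthesis genes, 9 were called higher (42.9%) and 0 lower, with a median of 0.28. The sterol transporter STARD4 rose by 0.91 ± 0.15 (adjusted p = 0.00620), the synthase genes LSS and HMGCS1 by 0.57 and 0.34, and the epoxidase gene SQLE by 0.55. Of 34 MYC and ribosome biogenesis genes, 9 were called higher (26.5%) and 0 lower, with a median of 0.20, led by RRP12, a factor for ribosomal subunit maturation (0.57 ± 0.16, adjusted p = 0.0375, on 1 of 2 probe sets), and the spermidine synthase gene SRM (0.53 ± 0.10). Without the replicate covariate these counts were 4 and 1. The cholesterol count was 2 to 5 without either CBFA2T3 shRNA array or without replicate 2 of any other group, and lowest without control shRNA replicate 2. The MYC count was 1 to 5 without any array other than replicate 1 of CBFA2T3 shRNA or control shRNA, and lowest without CBFA2T3 shRNA replicate 2. Of 36 glycolysis and hypoxia genes, 6 were called higher (16.7%) and 4 lower (11.1%), shares near those of all tested genes, and without the replicate covariate 2 higher and 0 lower. The glucose transporter gene SLC2A3 rose by 0.78 ± 0.14 (adjusted p = 0.00850) and PDK1, a kinase that restrains pyruvate dehydrogenase, fell by 0.46 ± 0.10 (adjusted p = 0.0193) on 1 of its 2 probe sets. Without control shRNA replicate 2 the counts for this list were 3 higher and 0 lower. Oxidative phosphorylation genes had 2 of 38 called higher and 2 lower (5.26% each). Apart from COX7A2L, they changed little, with NDUFA10 of complex I at 0.35 ± 0.06.

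Genes of the integrated stress response and of apoptosis rose in part. Of 33 genes of the integrated stress and unfolded protein response, 8 were called higher (24.2%) and 3 lower (9.09%), with a median of 0.11. ATF3 and PPP1R15A, which restores translation after stress, rose by 1.06 and 1.05, the transcription factor gene DDIT3 by 0.61 ± 0.12, and the endoplasmic reticulum chaperone gene PDIA4 fell by 0.54 ± 0.09. Without the replicate covariate 1 member was called higher, and 4 or 5 without replicate 2 of any group. Of 33 apoptosis regulators, 9 were called higher (27.3%) and 3 lower (9.09%). Antiapoptotic BCL2 fell by 0.58 ± 0.14 (adjusted p = 0.0251), antiapoptotic BCL2A1 rose, and the proapoptotic genes HRK (0.78 ± 0.09) and PMAIP1 (0.67 ± 0.11) rose. The count of rises there was 4 or 5 without any array other than control shRNA replicate 1 or replicates 1 and 2 of the shRNA with IKKβ(EE). Of 24 p53 targets, 4 were called higher (16.7%), led by TP53I3 (0.68 ± 0.14, adjusted p = 0.0141), and 0 lower, and of 17 heat shock genes, 3 were called higher (17.6%), led by the small chaperone gene HSPB1 (0.68 ± 0.17, adjusted p = 0.0261), and 0 lower. The shares of p53 targets and of heat shock genes called higher lie near the 12.9% over all tested genes. Without the replicate covariate 3 p53 targets and 0 heat shock genes were called higher. Without replicate 2 of CBFA2T3 shRNA, IKKβ(EE) or control shRNA, 1 p53 target and 1 heat shock gene were called higher.

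Adhesion, migration and matrix genes were often called in either direction, with 9 of 29 higher (31.0%) and 6 lower (20.7%). Besides CDC42EP3 and PLS3, the guidance receptor gene ROBO1 (1.58 ± 0.23) and its ligand gene SLIT2 (0.92 ± 0.16) rose, as did the leukocyte integrin gene ITGB2 (1.30 ± 0.35). Besides SDC2 and RASSF5, the chemokine receptor gene ACKR3 (-1.33 ± 0.20), the adhesion molecule gene CEACAM1 (-1.23 ± 0.18) and PREX1, an exchange factor for the GTPase Rac (-1.04 ± 0.27), fell.

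On the brightest probe set of each gene, partners of CBFA2T3 were called at shares near those of all tested genes. Of 27 tested members of the ETO corepressor complexes, 3 were called higher (11.1%) and 3 lower (11.1%), CBFA2T3 included. With the probe set of largest spread per gene 2 were called higher and 6 lower, and without the replicate covariate 1 higher and 2 lower. RUNX2, a RUNX factor, rose by 1.73 ± 0.30 (adjusted p = 0.00736), with 6.22 and 7.06 with the shRNA and IKKβ(EE) and 3.25 and 4.56 with the shRNA alone, against 3.96 and 4.39 with IKKβ(EE) alone and 2.64 and 3.20 with the control shRNA. Only the arrays with both transfections reached log2 6. BCL6 and the LIM-domain binding gene LDB1 rose by 0.48 and 0.29. LMO2, described above, fell by 1.49 and the RUNX partner CBFB by 0.30. The related corepressor gene CBFA2T2 (0.05), the deacetylase genes HDAC1 (0.14), HDAC2 (-0.25) and HDAC3 (-0.09), SIN3A (0.02) and TAL1 (0.04) were not called. Of 8 genes for E proteins and ID factors, 0 were called by limma in either direction, with TCF3 at -0.09, TCF4 at -0.14, TCF12 at 0.02 and ID3 at 0.37 (adjusted p = 0.113). Of 35 epigenetic regulators, 3 were called higher and 3 lower (8.57% each), with HDAC9 at 0.51 ± 0.11 (adjusted p = 0.0143, on 1 of 2 probe sets) and the CoREST subunit gene RCOR1 at -0.41 ± 0.08 (adjusted p = 0.00938). Without control shRNA replicate 2 these counts were 0 higher by limma and 1 lower.

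The effect of the shRNA was larger in replicate 2. The standard deviation over probe sets of the matched differences was 0.294 in replicate 1 and 0.427 in replicate 2 with IKKβ(EE), and 0.301 and 0.427 without it. The mean effects of the 2 replicates correlated at 0.80 across probe sets with a slope of 1.20, and 85.5% of the called probe sets had the larger effect in replicate 2. CBFA2T3 itself fell by 0.75 in replicate 1 and by 1.12 in replicate 2, a difference that was not called (adjusted p = 0.745). Over all probe sets 0 were called by limma for a difference between the replicates, with 1586 at an unadjusted p below 0.05. FOS had the reverse order, with 2.51 in replicate 1 and 2.32 in replicate 2. It was the only 1 of the 24 genes with the largest changes that did not have the larger effect in replicate 2.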

How the data were processed

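Gene expression was measured on 8 arrays, and the deposited values are log2 intensities that the authors made with RMA, per the submitters' processing notes; its version and the chip definition are not given in the sources used. RMA sets all arrays to a common distribution and so removes a shift shared by most transcripts. Of 54675 probe sets, 62 controls were left out, as were 30132 that reached log2 5 on fewer than 2 arrays. In GEO's platform annotation 41097 probe sets had 1 symbol, 1801 had several and 11777 had none, and 20746 tested probe sets represented 11449 genes. No genome build is named, so array values carry no coordinates.

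Probe sets were fitted with limma 3.58.1 in R 4.3.3 on shRNA, IKKβ(EE) status and replicate number (4 residual and 3.95 prior degrees of freedom, median SE 0.085). The effects in each background and their difference came from the same model with an interaction term (3 residual degrees of freedom). Tests were two-sided, with Benjamini-Hochberg adjustment over 24481 probe sets. The number of arrays limits the precision. Replicate numbers were taken to pair the arrays because deviations of equal numbers correlated at 0.34 to 0.58 in all 6 pairs of groups; the labels do not say what a number marks. Nothing beyond the label biological replicate says that cultures were separate, so p-values measure the spread between these arrays.

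The comparison, the lists and the naming rule were chosen with earlier results of these data known. The rule named the 12 largest rises and 12 largest falls among called genes whose 4 matched differences agreed in sign and whose higher side averaged at least log2 6. It also named the largest called rise and fall of each list, the called differences between backgrounds, and CBFA2T3, IKBKB and CSF1R. Other list members in the text were chosen after their values were seen. List members without an annotated probe set were not analysed here.

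Data were simulated with 200 changed probe sets among 24481 in 10 draws. The main effect recovered 75.8% of log2 changes of 0.5, 99.9% of 1 and 100% of 2, with 5.96% false calls. The simulated noise was independent between arrays, and each planted effect was equal in all shRNA arrays. In the data 5529 probe sets were called and the effect was larger in replicate 2, so these rates describe the simulated setting only. Alternatives were no replicate covariate, other floors, moderation, array weights and scalings, 1 probe set per gene, each array left out, and each background or replicate alone; a term for the shRNA by replicate was added after seeing the data.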

Additional observations from a re-analysis of the deposited data

Results flagged for a closer look

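TOX had 1 of its 4 matched differences apart from the rest. It was 4.12 between CBFA2T3 shRNA replicate 2 and control shRNA replicate 2, beside 2.87 to 2.94 in the other 3 pairs. MYD88 had the same pair apart, with 1.16 beside 0.564 to 0.658. Of 60 genes looked at in this way 2 stood out, and chance gives about 1 in 20.

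The shRNA effect with IKKβ(EE) differed from that without it, by limma's test of the difference, for HSPA6 (3.68), SLAMF7 (2.76) and 1 probe set with several gene symbols, which is not named (3.67). In each, only the arrays with both transfections were high.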

How the results depend on the processing

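The main effect called 5529 probe sets. With no replicate block the count was 2620, with IKKβ(EE) status left out 1962, and on 1 probe set per gene 2905. It was 2522 in the arrays without IKKβ(EE) alone, 695 in those with IKKβ(EE) alone, 291 in replicate 1 alone and 1580 in replicate 2 alone, all fits with fewer arrays. Leaving out 1 array gave 2676 to 4899. The other 9 alternatives (floors, moderation, weights, scalings, added terms) gave 3789 to 6318. The effect with IKKβ(EE) was called for 35 probe sets with no replicate block and for 4 to 1553 without 1 array, and the effect without IKKβ(EE) for 169 and for 11 to 2125. Their difference was called for 9 probe sets with a floor at log2 6 and for 0 to 57 without 1 array. Of 56 called named genes, 42 stayed called without the block; the 14 others (TLR7, TUT7, LTB, DUSP6, PRIM1, CDK1, RRP12, STARD4, SLC2A3, PDK1, PLCG2, ATF3, HSPB1 and HDAC9) had adjusted p of 0.0512 to 0.223. Of the 24 genes with the largest changes, 23 stayed called without any single array. Among all 56 called named genes this held for 41. TUT7 lost its call whichever array was left out, and TLR7, PRIM1, CDK1, RRP12 and PLCG2 kept theirs in only 2 of these fits. Cyclic loess and equal array medians moved the median of all probe sets by less than 0.005, and no list median changed sign with cyclic loess. List medians near 0 did change sign otherwise. With the probe set of largest spread per gene they were -0.01 for E proteins and ID factors (main 0.03), -0.003 for the pre-B receptor list (main 0.01) and -0.05 for erythroid or megakaryocytic markers (main 0.02). Leaving out single arrays turned these lists too, as well as antigen presentation (-0.003), heat shock (-0.005) and small RNA processing (0.003 and 0.02, main -0.02). HSPA6 had the opposite sign (-0.32) in the arrays without IKKβ(EE) alone. The causes were not tested. Values near log2 5 are close to background, so folds of dim genes are uncertain, and 4 residual degrees of freedom leave small changes undetected.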
